A study of Mus musculus with 2 samples.

Results

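Single bone marrow cells that carried transcripts of Dntt, a lymphoid gene, together with high levels of the neutrophil granule genes Mpo and Ctsg were described here. They were selected on their own counts of unique molecular identifiers (UMIs, 1 for each captured transcript molecule). A kept cell was a member with at least 2 Dntt UMIs and at least 15 Mpo plus Ctsg UMIs per 10000 UMIs of the cell, and with fewer than 10 per 10000 of the B lineage genes Ebf1, Cd79a, Vpreb1, Vpreb3 and Igll1 together. Of 12318 kept cells, 98 were members, 49 of 7190 in the control library and 49 of 5128 in the irradiated library. Neighbouring groups were used for comparison within each library. Dntt-only cells met the Dntt threshold but not the granule threshold (2647 control and 734 irradiated cells), and granule-only cells met the granule threshold but not the Dntt threshold (442 and 1854 cells).

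The cells came from a single-cell RNA sequencing study (10x Genomics, counts from the 3' ends of transcripts) of Lineage-, Sca1+, c-Kit+ (LSK) cells, the sorted marrow fraction that holds blood stem cells and multipotent progenitors. Both libraries were from C57BL/6J mice aged 6 to 8 weeks. The control library had the treatment label control. The irradiated library was taken at day 15 after 5.0 Gy of total body irradiation. The number of mice behind each library was not stated, and with 1 library per group no difference between the libraries has a replicate check or a test. Intervals below are exact 95% intervals and cover counting error only.

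Dntt encodes terminal deoxynucleotidyl transferase, which adds untemplated bases at the joints of rearranging antigen receptor genes and is among the first lymphoid genes that multipotent progenitors transcribe. Mpo encodes myeloperoxidase and Ctsg encodes cathepsin G, enzymes stored in the azurophil granules of neutrophil and monocyte precursors. Progenitors that transcribe genes of several lineages before commitment are known from mouse and human marrow, where such overlap is called multilineage priming.

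The rule genes lie on different chromosomes of GRCm38. Dntt (ENSMUSG00000025014) lies at chr19:41029275-41059525, Mpo (ENSMUSG00000009350) at chr11:87793581-87804413 and Ctsg (ENSMUSG00000040314) at chr14:56099881-56102574, by GENCODE M21. Elane (ENSMUSG00000020125, chr10:79886247-79888215), which encodes neutrophil elastase, and Prtn3 (ENSMUSG00000057729, chr10:79874476-79883174), which encodes proteinase 3, are granule protease genes next to each other that the rule did not use, and the results describe how their levels differed. The bases just before the starts of Dntt, Ctsg and Elane are shown because these 3 genes mark the lymphoid side, the granule side and the point at which the members divided. They are from RefSeq on GRCm38.p6, 5′ to 3′ on the gene's strand, at chr19:41029025-41029274 (plus strand), chr14:56102575-56102824 (minus strand) and chr10:79886062-79886246 (plus strand). Capitals mark GAGGAA, the core bound by the Ets factor PU.1, and TGTGGT, the core bound by Runx factors, each searched on both strands.
Dntt: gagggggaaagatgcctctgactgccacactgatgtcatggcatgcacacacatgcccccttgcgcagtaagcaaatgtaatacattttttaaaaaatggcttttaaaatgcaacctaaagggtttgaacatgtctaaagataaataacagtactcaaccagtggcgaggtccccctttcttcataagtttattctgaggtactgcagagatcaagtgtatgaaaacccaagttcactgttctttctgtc
Ctsg: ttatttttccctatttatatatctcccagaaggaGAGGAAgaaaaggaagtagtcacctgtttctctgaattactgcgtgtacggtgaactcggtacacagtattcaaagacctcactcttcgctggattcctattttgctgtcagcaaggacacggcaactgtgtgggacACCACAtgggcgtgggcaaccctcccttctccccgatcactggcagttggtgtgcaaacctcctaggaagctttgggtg
Elane: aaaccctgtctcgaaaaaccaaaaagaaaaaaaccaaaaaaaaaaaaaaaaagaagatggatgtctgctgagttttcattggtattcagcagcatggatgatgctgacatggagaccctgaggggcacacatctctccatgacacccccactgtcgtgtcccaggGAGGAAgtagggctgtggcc
GAGGAA on either strand occurred 2 times in the 250 bases before the RefSeq start of Mpo and 1 time each before Ctsg, Prtn3 and Elane. It did not occur before Dntt. The GENCODE models start further upstream for some genes, so that 203 of these bases for Mpo, all 250 for Prtn3 and 65 for Elane lie inside the GENCODE gene. Only bases outside it are printed. Of 32851 windows of this length in the same table, 23.3% held it. TGTGGT occurred 1 time before Ctsg and in none of the other 4 windows, against 14.05% of all windows. Another motif, TTGCNNAA of the C/EBP factors, occurred in none of the 5 windows and in 9.56% of all windows. These matches describe letters only, since 3' counts do not measure promoter use.

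The libraries held 138149626 (control) and 163772972 (irradiated) UMIs in kept cells, with medians of 16085 and 29671 UMIs per cell, so the irradiated library was deeper. They shared 16 barcodes of all deposited and 11 among kept cells, none of them a member in either library. RNA released from other cells was gauged in cells that should lack each transcript. Among the B-gene cells set aside by the rule, 0 of 115 control and 0 of 29 irradiated cells reached the granule threshold, which allows shares of up to 2.61% and 10.3%. Their highest Mpo plus Ctsg levels were 5.57 and 8.52 per 10000, although 17.4% and 82.8% of them held at least 1 such UMI. Among cells with at least 10 per 10000 of the erythroid genes Klf1, Car1 and Aqp1, 0 of 28 control and 2 of 301 irradiated cells reached the Dntt threshold, and 10.7% and 10.6% held at least 1 Dntt UMI at median depths of 17394 and 30144 UMIs. For Dntt, 0 of 28 control cells allows a share of up to 10.7%, and 2 of 301 irradiated cells is 0.664% (interval 0.0806% to 2.38%). Both member thresholds lay above the levels seen in nearly all of these cells. Whether released RNA carried some members over a threshold was not tested.

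Members made up 0.682% of kept control cells (interval 0.505% to 0.900%) and 0.956% of kept irradiated cells (0.708% to 1.26%), and the intervals overlapped. Among cells at the Dntt threshold, 1.82% of control and 6.26% of irradiated cells also reached the granule threshold, against 10.1% and 43.0% of cells below the Dntt threshold. Among cells at the granule threshold, 9.98% of control and 2.57% of irradiated cells reached the Dntt threshold, against 40.2% and 23.0% of cells below the granule threshold. The shares of granule-only cells (6.15% control, 36.2% irradiated) and Dntt-only cells (36.8% and 14.3%) thus stood much further apart between the libraries than the share of members did.

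**Figure D1:**
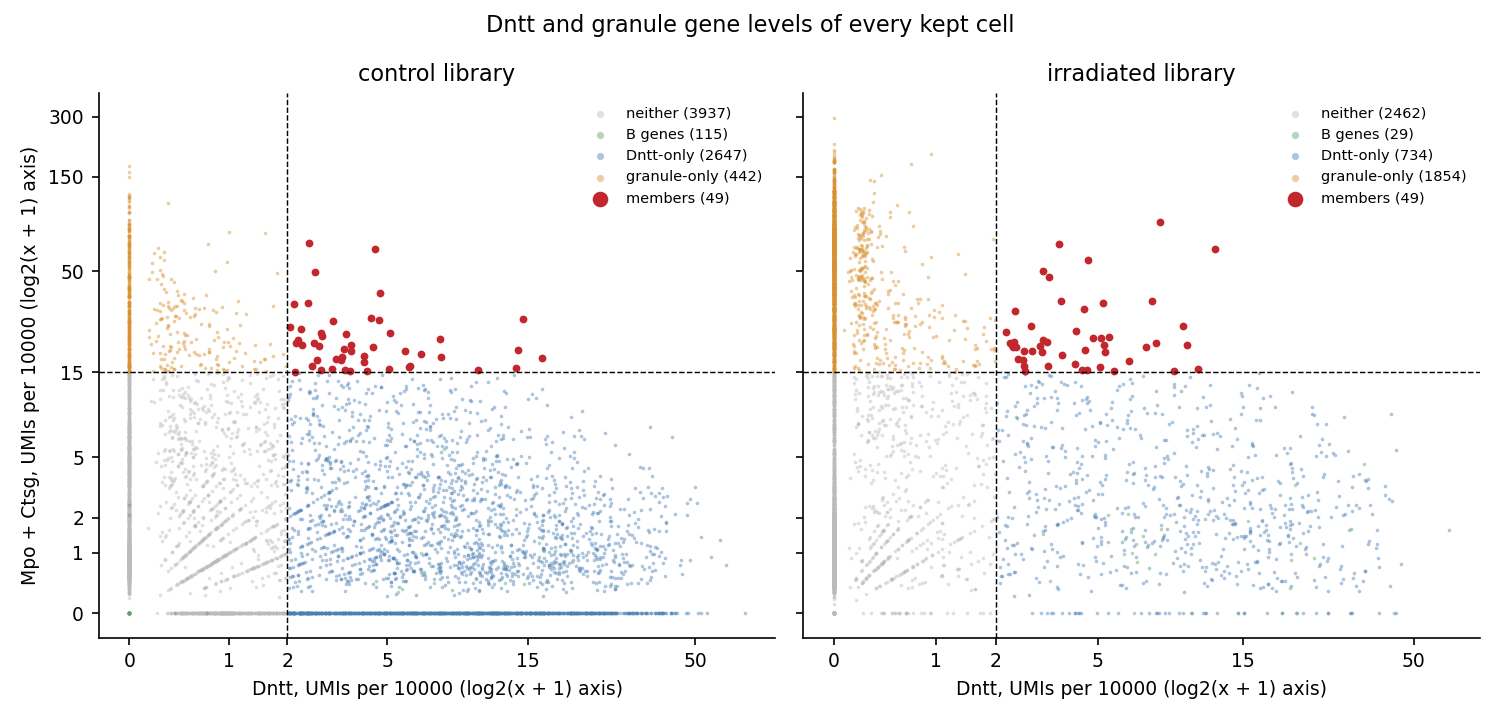
Each point is 1 kept cell, with its Dntt level on the x axis and its Mpo plus Ctsg level on the y axis, both in UMIs per 10000 on log2(x + 1) axes, for the control (left) and irradiated (right) library. Dashed lines are the thresholds of 2 and 15, and the 49 members of each library fill the upper right corner next to it, most of them near both lines.

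The values that chose the members were moderate on both sides. Dntt ran from 2.06 over a median of 3.52 to 16.6 per 10000 in control members and from 2.22 over 4.14 to 12.2 in irradiated members, while Dntt-only cells had medians of 8.18 and 9.43. Mpo plus Ctsg ran from 15.1 over 19.9 to 69.8 in control members and from 15.1 over 20.8 to 88.5 in irradiated members, while granule-only cells had medians of 28.8 and 51.7. A typical member thus sat near the lower edge of both programmes. The Dntt count behind these levels was 3 to 91 UMIs per control member (median 12) and 2 to 108 per irradiated member (median 13). Mpo plus Ctsg reached 30 per 10000 in 6 control and 11 irradiated members, Dntt reached 8 in 5 and 6, and both did so in 0 control and 2 irradiated members.

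Cells lay just outside each threshold as well as just inside it. Dntt cells with Mpo plus Ctsg of 12.5 to 15 numbered 29 control and 27 irradiated cells, and those of 15 to 17.5 numbered 15 and 12. Flt3 in the cells just outside was 141 and 153 CPM (UMIs of a gene per 1000000 UMIs, summed over the cells of a group) and 145 and 147 CPM in the cells just inside. Elane in the same cells was 4.67 and 13.9 CPM just outside and 35.7 and 25.4 CPM just inside. The control value of 35.7 CPM came mostly from a single cell with 66526 UMIs, so it is not the level of a typical cell there. Granule cells with Dntt of 1.5 to 2 numbered 10 and 18, and those of 2 to 2.5 numbered 9 and 8. Elane was 901 and 244 CPM just outside this threshold and 540 and 31.5 CPM just inside it. The control value of 540 CPM also came mostly from a single cell, with 40143 UMIs. How the Elane UMIs were spread over the cells just outside was not tested. Flt3 was 91.0 and 94.4 CPM outside this threshold and 70.8 and 90.03 CPM inside. The groups were cut at chosen levels, and whether they are separate cell types was not tested.

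Members held more UMIs than Dntt-only cells. The control members held a median of 30510 UMIs (lowest 5849, highest 93807), against 17027 in Dntt-only and 33383 in granule-only cells. The irradiated members held a median of 30480 (9023 to 88235), against 26269 and 41659. The 2 comparator medians add up to 50410 UMIs in the control and 67928 in the irradiated library. More UMIs than this sum were held by 13 control members (26.5%) and 6 irradiated members (12.2%), against 1.51% and 0.545% of Dntt-only cells and 14.03% and 4.42% of granule-only cells. The other 36 control and 43 irradiated members held no more than the sum. Among the 6% of cells with the highest Scrublet doublet score in each library there were 10 control and 10 irradiated members (20.4% of each), against 4.75% to 7.90% of the comparator groups. Depth and score therefore moved with membership for part of the members, and whether those cells were pairs in 1 droplet was not tested. Thinned to 5000 UMIs per cell, members showed a median of 1752 (control) and 1777 (irradiated) genes, next to 1757 to 1778 in the comparator groups.

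Among granule genes outside the rule, Prtn3 was present in every member and Elane was not. Presence of Prtn3 does not set the members apart. It was found in 89.8% (control) and 94.6% (irradiated) of Dntt-only and 99.3% and 100% of granule-only cells. Prtn3 ran from 2.95 over 11.1 to 69.0 UMIs per 10000 in control members and from 3.22 over 10.7 to 62.3 in irradiated members. Dntt-only cells had Prtn3 medians of 3.098 and 2.66, and granule-only cells 16.0 and 39.7, so members lay between the groups in both libraries. Elane was at 0 UMIs in 30 of 49 control and 17 of 49 irradiated members, and its highest levels were 53.6 and 60.7 per 10000. In granule-only cells the Elane median was 0.243 (control) and 4.95 (irradiated). After thinning to 5000 UMIs, an Elane UMI was seen in 12.2% of control members (4.63% to 24.8%) and 32.7% of irradiated members (19.9% to 47.5%), next to 0.644% and 9.02% of Dntt-only and 34.2% and 68.6% of granule-only cells. Before thinning these shares were 38.8% and 65.3% of members.

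The members with much Elane were few and deep, although other deep members had little. A level of at least 3 Elane UMIs per 10000, a line drawn after the values were seen, was reached by 4 control and 8 irradiated members. The 4 control cells held 40143, 51186, 57824 and 64858 UMIs. Of the 8 irradiated cells the shallowest held 44012, the median was 69874 and the deepest 88235 UMIs, and 6 of them were the 6 irradiated members above the summed comparator medians. Below the line, 16 of 45 control members held more UMIs than the shallowest of the 4, up to 93807, and 4 of 41 irradiated members held more than the shallowest of the 8, up to 58759. No Dntt-only cell reached the line, and 103 of 442 control and 1053 of 1854 irradiated granule-only cells did, at median depths of 43513 and 43738 UMIs. The Elane-high members carried other neutrophil precursor genes too. Ms4a3, a granulocyte and monocyte progenitor gene, stood at 463 (control) and 849 CPM (irradiated) in them, against 21.6 and 12.3 CPM in the remaining members. Hp, which encodes haptoglobin, stood at 159 and 221 CPM, against 28.2 and 27.8. The same 4 and 8 cells held 86.9% and 97.0% of all Elane UMIs of the members. Satb1, a chromatin organiser of lymphoid progenitors, was lower in them (93.5 and 36.3 CPM) than in the remaining members (132 and 129 CPM). Flt3 was lower in them too, at 46.7 and 74.4 CPM against 121 and 131. Dntt and the lymphocyte gene Gimap6 differed in direction between the libraries. Dntt, a rule gene, stood at 332 against 479 CPM in control but 615 against 431 CPM in irradiated members. Gimap6 stood at 84.1 against 73.2 CPM in control but 36.3 against 43.4 CPM in irradiated members. These values rest on 4 and 8 cells and carry no interval, so whether the directions differ was not tested. The 8 irradiated cells include the irradiated member with the highest Dntt level, 12.2 per 10000.

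**Figure D2:**
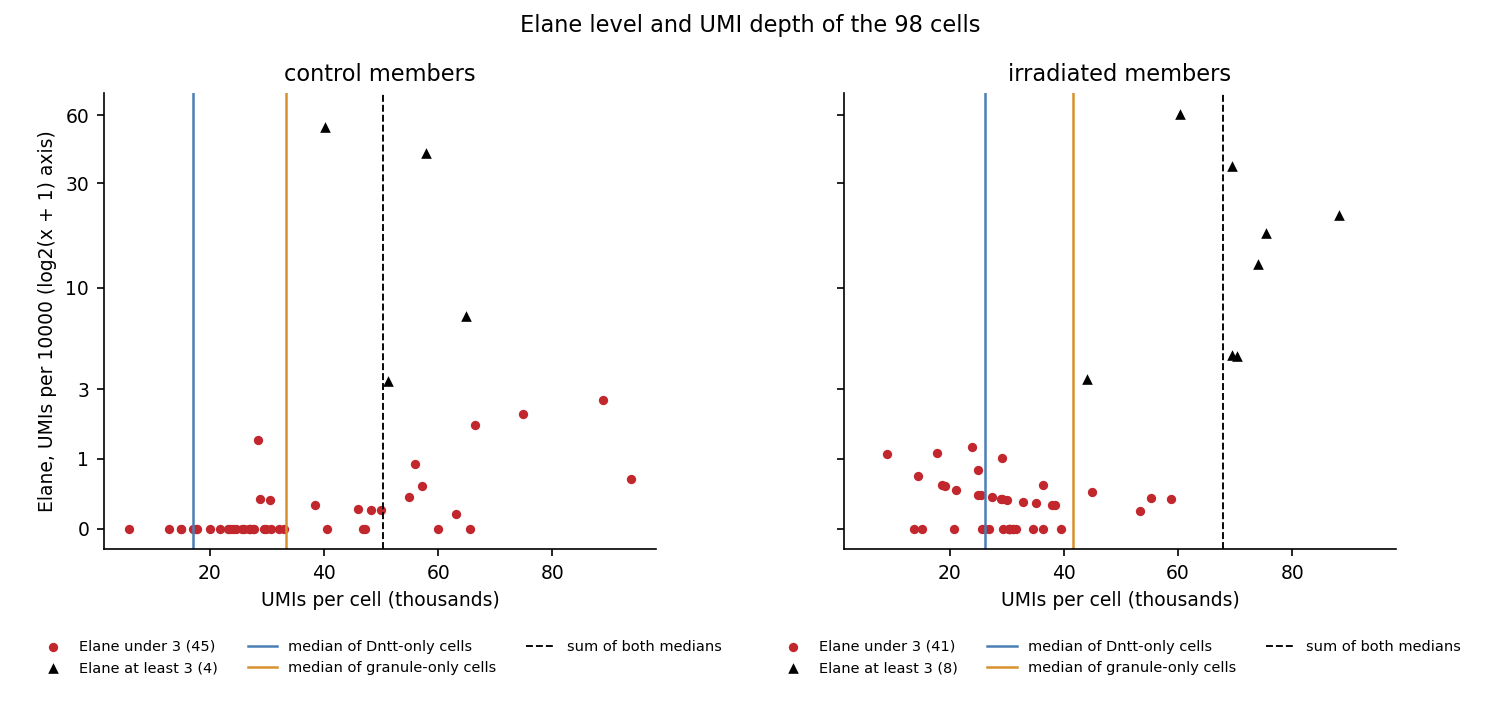
Each point is 1 member, with its UMIs (divided by 1000) on the x axis and its Elane level in UMIs per 10000 on a log2(x + 1) y axis, for the control (left) and irradiated (right) library. Vertical lines are the median depths of Dntt-only and granule-only cells and their sum (dashed). The triangles, 4 control and 8 irradiated cells with at least 3 Elane UMIs per 10000, all hold over 40000 UMIs, and most members lie at or near 0 Elane.

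The remaining 45 control and 41 irradiated members, with fewer than 3 Elane UMIs per 10000, had medians of 29541 (control) and 29384 (irradiated) UMIs. They carried 1166 and 779 CPM of Mpo, 1102 and 1262 CPM of Ctsg and 1249 and 1166 CPM of Prtn3 beside 479 and 431 CPM of Dntt. Elane stood at 46.8 and 27.8 CPM in them. Granule-only cells below the same Elane line, 339 control and 801 irradiated cells, held 1405 and 1456 CPM of Mpo, 1369 and 1782 CPM of Ctsg and 39.2 and 84.3 CPM of Elane. In the irradiated library all 3 were higher in these granule-only cells than in the members, and Ms4a3 stood at 287 CPM in them against 12.3 CPM in the members. Among irradiated members below the line, 0 of 41 held more UMIs than the summed comparator medians, and among control members 10 of 45 did.

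Read along the granule axis, cells at the Dntt threshold differed from range to range in some genes and at the top alone in others. The cells were divided by Mpo plus Ctsg into 0 to 2, 2 to 5, 5 to 10, 10 to 15, 15 to 20 and at least 20 per 10000, the last 2 ranges being the members. Prtn3 was higher in each range than in the one before, from 303 to 1895 CPM in the control and from 234 to 2668 CPM in the irradiated library. Elane was 1.68 CPM in the lowest control range, 3.14 in the range of 10 to 15, 23.8 at 15 to 20 and 494 at 20 and over. In the irradiated library Elane stayed between 15.6 and 20.04 CPM up to 20 per 10000 and was 931 CPM above it. The top ranges held all 4 control and 8 irradiated members with at least 3 Elane UMIs per 10000. Those cells held 86.9% and 97.0% of the members' Elane UMIs, so the top values are not levels of a typical cell there. At 15 to 20 in the control, a single cell stood at 1.80 Elane UMIs per 10000 and the others at no more than 0.525. The lymphoid cytokine receptor gene Il7r was lower at the top, from 31.3 to 1.71 CPM in the control and from 29.4 to 0.816 CPM in the irradiated library. Hlf, a stem cell transcription factor gene, was 89.4 CPM in the lowest and 14.6 in the highest control range, and 36.5 and 4.90 CPM in the irradiated library. Flt3, the receptor of lymphoid-primed progenitors, differed less, from 227 to 92.5 CPM and from 166 to 103 CPM. Irf8, a factor of monocyte and dendritic cell fate, was 89.7 and 60.3 CPM in the lowest range and 212 and 222 CPM at 10 to 15. In the member ranges Irf8 was 178 and 213 CPM at 15 to 20, and 211 and 158 CPM at 20 and over. The median depth also differed along the axis, from 15397 to 47774 UMIs in the control and from 23681 to 30766 in the irradiated library, and its part in these levels was not tested. The top ranges hold only 24 and 30 cells, and the range of 15 to 20 holds 25 and 19.

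**Figure D3:**
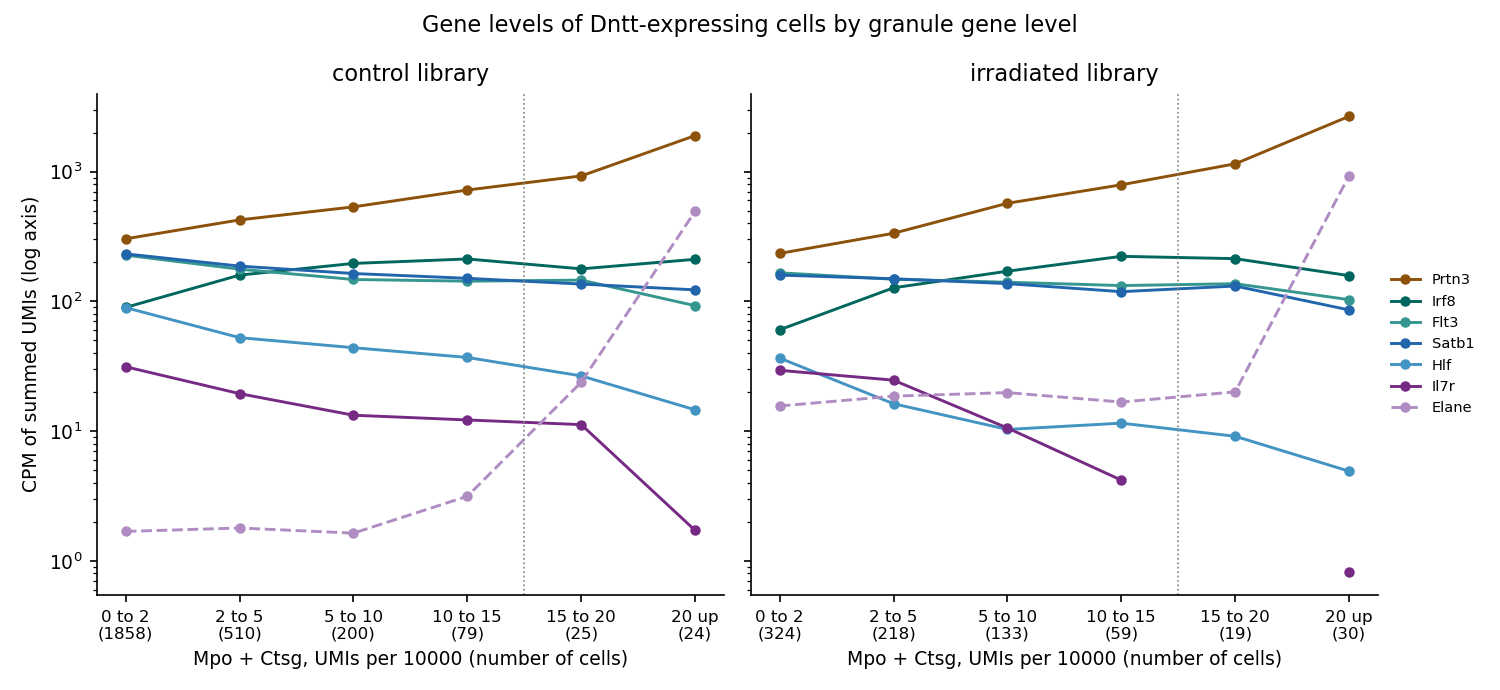
The lines are CPM of UMIs summed over cells (log y axis) for 7 genes in cells at the Dntt threshold, grouped on the x axis by Mpo plus Ctsg in UMIs per 10000 with the number of cells in parentheses, control left and irradiated right. The dotted line marks the member threshold. Prtn3 is higher in each successive range, and Il7r and Hlf are lower at the top than at the bottom. Elane (dashed) is high only in the last range, which holds the few Elane-high members. Ranges with a level of 0 have no point.

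Lymphoid genes were present in the members at levels between those of the 2 comparator groups. Flt3 was found in 47 of 49 control members (highest 2.85 per 10000, median 1.17) and in 45 of 49 irradiated members (highest 3.38, median 1.07). It was also found in 94.1% (control) and 93.6% (irradiated) of Dntt-only and 74.0% and 50.5% of granule-only cells. After thinning, a Flt3 UMI was seen in 38.8% of control members (25.2% to 53.8%) and 51.0% of irradiated members (36.3% to 65.6%). These shares were 62.9% and 53.4% in Dntt-only and 23.4% and 12.4% in granule-only cells. In CPM Flt3 was 113 in the members of both libraries, against 203 and 152 in Dntt-only and 60.9 and 27.5 in granule-only cells. Satb1 was 128 and 99.8 CPM, against 211 and 148 in Dntt-only and 70.3 and 29.3 in granule-only cells. Il12a, a subunit gene of interleukin 12 and 35, was 55.3 and 58.7 CPM, against 126 and 137 in Dntt-only and 21.8 and 15.4 in granule-only cells. The recombinase gene Rag1 had 1 UMI in all control and 1 in all irradiated members, and Rag2 had 5 and 8. Il7r had 10 and 1 UMIs. Of 22 lymphoid priming genes, all had at least 1 UMI in control members and 21 in irradiated members, where Ly6d was at 0. All 22 also had at least 1 UMI in Dntt-only and in granule-only cells of both libraries, so presence does not set the members apart. Summed over the list, members held 2041 and 1812 CPM, Dntt-only cells 3032 and 2538, and granule-only cells 1316 and 821.

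No gene set the members apart from both neighbouring groups in both libraries by 1.5-fold. Of the 4806 genes with enough UMIs in both libraries, 0 were at least 1.5-fold above both comparator groups in both libraries and 0 were at least 1.5-fold below both. Where the comparators themselves stood at least 4-fold apart, members lay between them in 15 of 19 genes higher in granule-only cells and 19 of 19 higher in Dntt-only cells in the control library, and in 38 of 38 and 31 of 31 in the irradiated library. The 4 control genes outside that interval were Camp, S100a8 and S100a9, which encode proteins of later neutrophils, and Prss34, a basophil protease gene. Members held 1.59, 3.72, 4.25 and 0 CPM of them, less than both comparators, against 68.4, 211, 174 and 240 CPM in granule-only cells. On a linear CPM scale from the Dntt-only to the granule-only level, members stood at a median of 40.6% (control) and 42.7% (irradiated) for genes higher in granule-only cells. For genes higher in Dntt-only cells they stood at 69.5% and 60.1%, closer to the granule-only level.

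Against Dntt-only cells, 21 of 4826 genes were at least 2-fold higher in the members of both libraries (0.435%) and 20 were at least 2-fold lower (0.414%). These contrasts share their cells with the rule, so the counts and values are descriptions. The higher genes included Ap3s1, an adaptor complex subunit gene of endosomal sorting, at 182 (control) and 192 CPM (irradiated) against 35.4 and 38.0 CPM in Dntt-only cells. Anxa3, an annexin gene of neutrophils, was at 63.3 and 64.3 CPM against 13.8 and 14.8. Cebpd, a myeloid transcription factor gene, was at 39.3 and 47.4 CPM against 15.7 and 17.2. The chemokine gene Ccl9 was at 150 and 199 CPM against 73.8 and 79.0, and it was as high in members as in granule-only cells (154 and 166 CPM). The others named by the same rule were Prtn3, Rab44, Slpi, Slc4a8, Ms4a6c, Mapkapk3, Gatm and Sdf2l1.

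The genes lower than in Dntt-only cells included Gimap6, a GTPase gene of lymphocytes, at 74.4 and 41.2 CPM against 220 and 143 CPM. Its neighbour Gimap1 was at 42.5 and 32.2 CPM against 119 and 91.8. Plk2, a p53-responsive kinase gene, was at 9.57 and 12.4 CPM against 35.2 and 32.5. Smad7, an inhibitor of TGF-beta signalling, was at 80.8 and 55.3 CPM against 211 and 118. Msi2, an RNA-binding protein gene of stem and progenitor cells, was at 119 and 68.8 CPM against 237 and 154. Car2, Dok2, H2-Ob, Il12a, Tbxa2r, Tcf7l2 and Dennd1b completed the 12.

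Against granule-only cells, 14 of 4717 genes were at least 2-fold higher in the members of both libraries (0.297%) and 6 were at least 2-fold lower (0.127%). The higher genes included Nr4a1, an orphan nuclear receptor gene of the immediate early class, at 73.4 and 55.3 CPM against 26.4 and 13.5 CPM. Dusp5, a phosphatase gene that acts on ERK, was at 80.8 and 64.9 CPM against 32.8 and 16.97. Cdkn1a, the p21 cell cycle inhibitor gene, was at 108 and 124 CPM against 52.0 and 55.0, close to Dntt-only cells (135 and 139). Bcl2l11, which encodes the death protein Bim, was at 35.6 and 42.3 CPM against 16.6 and 14.9. Hmga2, a chromatin gene of fetal-type stem cells, was named by the same rule but is not among the 14. It was at 45.7 and 54.7 CPM against 23.0 and 19.6, a control log2 ratio of 0.99, just under 2-fold. Il12a, Gimap6, Ier5, Zfp36l1, Lsp1, Wfdc17 and Cnn3 were the others named by this rule. The 6 lower genes were Elane, Ms4a3, Hp, Ly6c2, S100a8 and F13a1, named after their values were seen. For 3 of them 1 member held over 20% of the UMIs in both libraries, namely Elane (39.9% and 31.8%), Ms4a3 (33.3% and 23.4%) and Ly6c2 (40.6% and 32.5%).

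**Figure D4:**
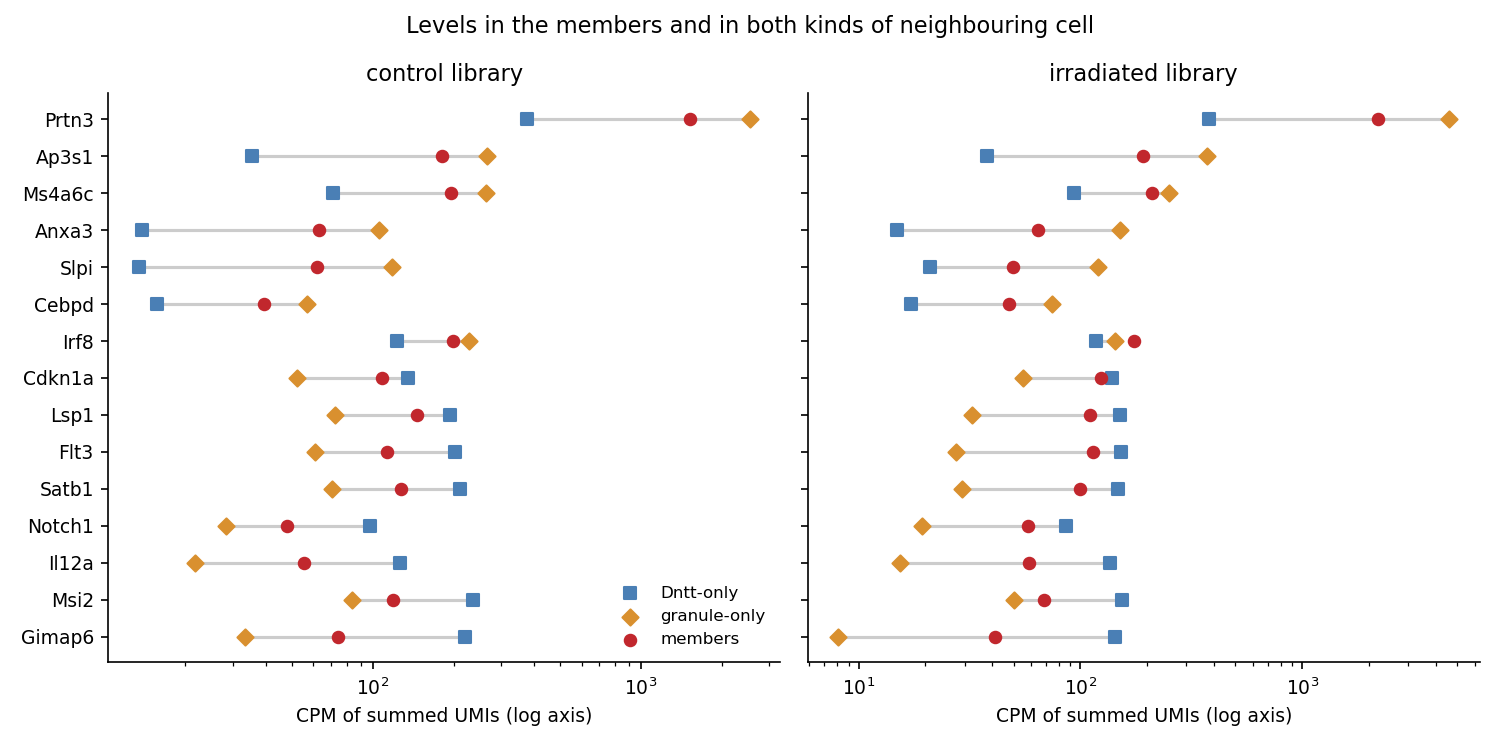
Points are CPM of UMIs summed over cells (log x axis) of 15 genes in Dntt-only cells (squares), granule-only cells (diamonds) and members (circles), for the control (left) and irradiated (right) library. Members lie between the 2 comparators for these genes, except Irf8 in the irradiated library, where members lie above both.

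Transcription factors of both fates were found together in the summed members. Spi1, which encodes PU.1, was at 190 (control) and 171 CPM (irradiated), and Myb at 217 and 200. Mef2c, a factor of lymphoid priming, was at 529 and 410 CPM, between Dntt-only (674 and 562) and granule-only cells (344 and 195). Cebpa, the factor that granulocyte progenitors require, was at 29.8 and 36.1 CPM, against 16.5 and 12.6 in Dntt-only and 40.3 and 54.6 in granule-only cells. Gfi1, a transcriptional repressor that neutrophil development requires, was at 11.7 and 14.7 CPM. Cebpe, a factor of later neutrophil precursors, was at 0 UMIs in control members, which allows up to 1.59 CPM, and at 3.95 CPM in irradiated members, where 1 cell held 28.6% of its 7 UMIs. After thinning, an Irf8 UMI was seen in 59.2% of members in each library (44.2% to 73.0%), next to 32.1% of Dntt-only cells in each and 51.7% and 38.2% of granule-only cells.

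Several marker genes of other lineages were at 0 in the members. The members' sums hold 1881219 (control) and 1772757 UMIs (irradiated), so 0 allows up to 1.59 and 1.69 CPM. The comparator sums hold 15472346 to 78187076 UMIs and reach lower levels. Of 14 T and innate lymphoid genes, 8 were at 0 in control and 7 in irradiated members, with Cd3e, Cd3g, Trbc2, Tcf7, Bcl11b and Il2rb at 0 in both. In Dntt-only cells 1 (control) and 2 (irradiated) of the 14 were at 0, and in granule-only cells 5 and 1. Most of this list's summed level (215 and 281 CPM, next to 194 to 368 in the comparators) was Nkg7 (209 and 273 CPM), which granule-only cells carried as well (244 and 362). Of 12 B lineage genes outside the rule, Pax5, Ms4a1 and Pou2af1 were at 0 in both libraries, and the list summed to 102 and 119 CPM, next to 91.2 to 139 in the comparators. Of 13 erythroid genes, 7 were at 0 in control and 3 in irradiated members, with Hba-a1, Epor and Ermap at 0 in both, and the list summed to 151 and 155 CPM, next to 156 to 328 in the comparators. Of 12 late neutrophil granule genes, Ltf, Ngp, Retnlg and Chil3 were at 0 in both, and the list summed to 34.6 and 50.2 CPM, against 56.9 and 17.5 in Dntt-only and 488 and 173 in granule-only cells. Of 7 mast cell and basophil genes, Prss34, Fcer1a and Cma1 were at 0 in both, and the list summed to 110 and 120 CPM, against 78.8 and 77.0 in Dntt-only and 579 and 173 in granule-only cells. Most monocyte and dendritic genes were present. Of 18, only Siglech and Batf3 were at 0 in both libraries, and the list summed to 1343 and 1383 CPM, next to 1297 and 1253 in Dntt-only and 1474 and 1316 in granule-only cells.

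Members of the irradiated library were compared with those of the control library gene by gene. Among 5016 genes with enough UMIs, 38 stood higher (0.758%) and 20 lower (0.399%), and the median log2 ratio over all of them was 0.03. These counts were 95 and 38 without the 6% of cells with the most UMIs in each library, and 107 and 110 in cells thinned to 5000 UMIs. Osm, which encodes the cytokine oncostatin M, was at 13.8 CPM in the control and 59.2 CPM in the irradiated members (log2 ratio 2.099, interval 1.47 to 2.78). Irf7, the transcription factor of the interferon response, was at 10.6 and 38.9 CPM (1.87, 1.14 to 2.67). Ly6a, which encodes the Sca1 antigen used in the sort, was at 74.4 and 261 CPM (1.81, 1.53 to 2.09). Sca1 protein was a criterion of the gate, so this ratio is among cells already chosen for the antigen. Cebpb, a factor of emergency granulopoiesis, was at 73.4 and 208 CPM (1.501, 1.21 to 1.79). Lgals1, which encodes galectin 1, was at 477 and 1090 CPM (1.19, 1.08 to 1.31). Clec4e, S100a6, Cenpv, Itgb7, Trafd1, Cd9 and Mb21d1 were the other higher genes, with log2 ratios from 1.17 to 1.62.

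The lower genes were led by Klk8, a serine protease gene, at 79.7 CPM in the control and 16.4 CPM in the irradiated members (log2 ratio -2.29, interval -2.91 to -1.70). Ptms, which encodes parathymosin, was at 50.5 and 11.8 CPM (-2.09, -2.85 to -1.40). Txnip, an inhibitor of thioredoxin linked to stem cell quiescence, was at 54.2 and 20.3 CPM (-1.42, -2.01 to -0.86). The chemokine gene Ccl3 was at 272 and 109 CPM (-1.32, -1.57 to -1.08). Shisa8, Ndrg1, Serpinf1, Zbtb20, Rsrp1, N6amt1, Polr3gl and Rbpms completed the 12, with log2 ratios from -1.68 to -1.17.

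Most of these differences were seen in the neighbouring cells of the same libraries too. Klk8 had log2 ratios of -2.38 in Dntt-only and -2.38 in granule-only cells, next to -2.29 in members. Cebpb had 0.51 in Dntt-only and 1.09 in granule-only cells, next to 1.501. Itgb7, an integrin gene, had 0.41 and -0.34, next to 1.28 in members with a wide interval (0.62 to 1.97). Lgals1 had 1.83 in Dntt-only and 0.42 in granule-only cells, next to 1.19. Of the 24 genes shown in the plot of log2 ratios, Itgb7 in granule-only cells was the only one on the other side of 0 in a comparator.

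**Figure D5:**
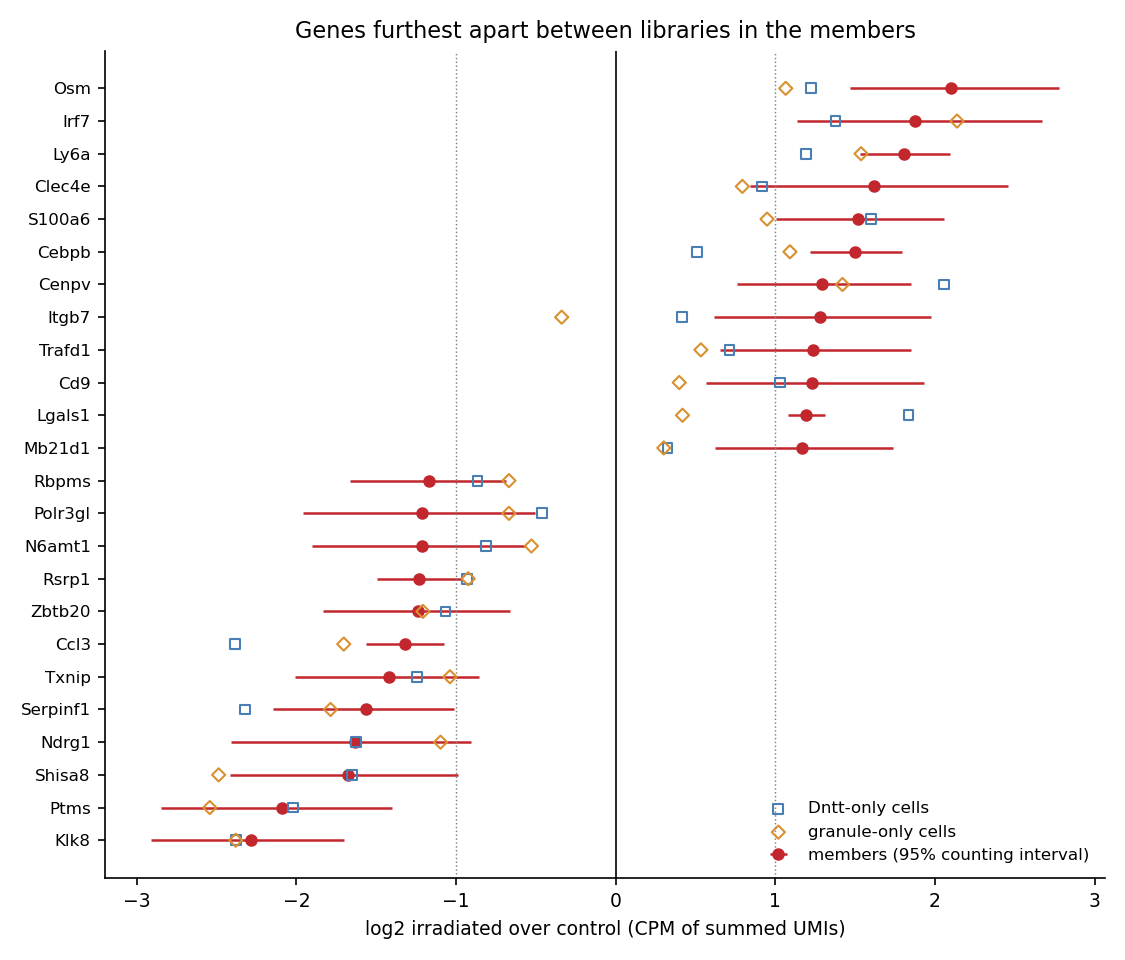
The x axis is the log2 ratio of irradiated over control CPM for the 12 highest and 12 lowest named genes (y axis). Circles are members with 95% counting intervals, squares Dntt-only cells and diamonds granule-only cells, and dotted lines mark 2-fold. Osm is highest (2.099) and Klk8 lowest (-2.29) in members.

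Interferon response genes were higher in irradiated members as a group. Of 14 with enough UMIs, 5 were at least 2-fold higher, 0 were lower and 11 were at least 1.25-fold higher, with a median log2 ratio of 0.91. Over all genes tested 14.5% were at least 1.25-fold higher and the median was 0.03. Bst2, which encodes tetherin, was at 220 CPM in the control and 330 CPM in the irradiated members, and Ifi27l2a at 137 and 306 CPM. Psmb8, an immunoproteasome subunit gene, was at 679 and 771 CPM. The 5 genes, identified after their values were seen, were Irf7, Ifi27l2a, Oasl2, Usp18 and Rtp4. In Dntt-only cells 5 of 17 genes of this list were at least 2-fold higher (median 0.76; Isg15, Irf7, Ifi27l2a, Usp18 and Rtp4), and in granule-only cells 2 of 11 (median 0.40; Xaf1 and Rtp4). Over all genes 0.426% were at least 2-fold higher in Dntt-only and 0.565% in granule-only cells, where 0.586% were at least 2-fold lower.

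Lymphoid priming genes stood slightly lower in irradiated members, with 0 of 13 at least 2-fold either way and a median log2 ratio of -0.31. Flt3 had a log2 ratio of 0.01 (-0.28 to 0.29) and Satb1 of -0.35 (-0.64 to -0.07) in members, whereas granule-only cells had -1.15 and -1.26. In members below 3 Elane UMIs per 10000, Satb1 was close between the libraries, at 132 CPM in the control and 129 CPM in the irradiated library. Across 13 other processing settings the list median ran from -0.36 to -0.0381 and Satb1 from -0.70 to -0.0381. Mef2c (529 and 410 CPM), Ighm (198 and 143), Lsp1 (147 and 110) and Cd27 (145 and 104) were lower.

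Of 10 azurophil granule genes, 1 was at least 2-fold higher in irradiated members and 0 were lower, with a median log2 ratio of 0.39. The 1 was Elane, at 316 CPM in the control and 649 CPM in the irradiated members (1.04, 0.89 to 1.18). Prtn3 was at 1527 and 2198 CPM (0.53, 0.46 to 0.60). Of 11 granulocyte and monocyte progenitor genes, 4 were at least 2-fold higher, namely Ms4a3, Cebpb, Hp and Mt1, with a median of 0.60. Elane, Ms4a3, Hp and Prtn3 depended on the few Elane-high cells. In the 45 and 41 members below 3 Elane UMIs per 10000 their log2 ratios were -0.75, -0.81, -0.0185 and -0.0994, and the median of the progenitor list was -0.0185. Without the 6% of cells with the highest Scrublet score, Elane, Ms4a3 and Hp stood at -2.97, -0.67 and -0.35. Mt1, a metallothionein gene, had a log2 ratio of 2.12 in all members and 1.25 in the members below the Elane line, at 25.8 CPM in the control and 61.4 CPM in the irradiated library. Cebpb, Irf7, Osm and Ly6a kept log2 ratios of at least 1.33, 1.65, 1.63 and 1.66 under all 13 other settings.

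Among other groups, immediate early genes had a median log2 ratio of -0.39 in members, with 1 of 15 at least 2-fold higher (Atf3) and 9 at least 1.25-fold lower, next to 13.3% of all genes. This median was 0.0017 without the 6% of cells with the highest Scrublet score. Without the 6% of cells with the most UMIs it was 0.0667. In Dntt-only cells the median was -1.04 and 8 of 15 were at least 2-fold lower, next to 0.795% of all genes. Fos was at 714 CPM in the control and 645 CPM in the irradiated members, Jun at 559 and 430, and Junb at 316 and 302. The chemokine gene Ccl4 was at 325 and 174 CPM. S phase genes had 0 of 20 at least 2-fold either way (median 0.25) and G2/M genes 0 of 24 (median 0.01). The p53 target genes had 0 of 6 at least 2-fold either way (median 0.29), with Bax at 105 and 137 CPM and Cdkn1a at 108 and 124 CPM. V(D)J recombination and end-joining genes other than Dntt had 0 of 4 at least 2-fold either way (median 0.02).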

How the data were processed

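LSK cells were sorted, without replicate libraries, into 1 control and 1 irradiated library of the 10x single cell 3' v2 protocol, per the labels' protocols. The deposited values are raw counts of UMIs per gene and barcode. The submitters' processing notes name Cell Ranger 2.1.1 and mm10, and the matrix headers give software version 3.1.0. Barcodes with at least 1000 UMIs, 500 genes and at most 10% mitochondrial UMIs were kept (7190 control and 5128 irradiated). The members and all gene lists were chosen with earlier results of these data known.

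UMIs were summed over the cells of a group and given as CPM. Ratios carry exact intervals conditional on the total of both counts, and shares carry Clopper-Pearson intervals (95%, counting error only). A gene entered at a mean CPM of at least 20 and was counted at a ratio of at least 2. A floor is 3 counts. Named genes were the 12 highest and 12 lowest ratios, leaving out rule, predicted, mitochondrial, ribosomal protein and sex-linked genes and genes with over 20% of a group's UMIs in 1 cell, and the leading 6 of each list by CPM. Other genes named were chosen after their values were seen. No test was made. The ratio step was tested on simulated data. Scrublet in scanpy 1.11.5 marked 0.0139% and 0.312% of cells at an expected rate of 6%, far under that rate, so its calls were not used and no cell was removed; its scores were used to rank cells. Gene coordinates are from GENCODE M21.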

Additional observations from a re-analysis of the deposited data

How the results depend on the processing

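Each choice was changed alone. The share of members depends on the thresholds. With Mpo plus Ctsg of at least 10 it was 1.78% (control) and 2.11% (irradiated), of at least 30 it was 0.0834% and 0.215%, with Dntt of at least 1 it was 1.06% and 1.72%, of at least 4 it was 0.292% and 0.488%, and with cells thinned to 5000 UMIs before the rule it was 1.45% and 2.78%. Without the 6% of cells with the most UMIs the control share was 0.429% and the control median depth 25932 UMIs. Genes at least 2-fold higher and lower in irradiated members then numbered 95 and 38, in thinned cells 107 and 110, at a mean CPM of at least 50 they numbered 11 and 4, and with no CPM filter 324 and 486. The higher genes numbered 25 in members below 3 Elane UMIs per 10000. The lower genes numbered 36 without the 6% of cells with the highest Scrublet score and 35 without the 5 cells with the most UMIs of each gene. Genes apart from Dntt-only and from granule-only cells numbered 16 and 9 at a CPM of at least 50 and 622 and 402 with no filter. Those apart from granule-only cells numbered 31 in members below the Elane line.

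Without the 6% of cells with the highest Scrublet score, the log2 ratios of irradiated over control members turned to -2.97 for Elane, -0.67 for Ms4a3 and -0.35 for Hp. Below the Elane line they were -0.75, -0.81 and -0.0185. The median of the granulocyte and monocyte progenitor list was -0.20 and -0.0185 under these settings, and Prtn3 was -0.0994 below the Elane line. Irf8 turned from lower to higher (0.0649 to 0.48) under 4 settings that left out deep, high-scoring or Elane-high cells, and to 0.0288 with each cell weighted equally. The causes were not tested. The Elane line and the summed-median line were chosen after seeing the data. Across the gene ratios between libraries and their settings, 473 values stayed within the counting interval and 67 left it besides the 6 given first. Limits are 49 cells per library, 1 library per group, unknown animal numbers and undetected doublets.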

Other observations

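Cell cycle genes varied widely among the members. Summed S phase genes ran from 1.55 over a median of 21.9 to 42.0 UMIs per 10000 in control members and from 3.89 over 27.9 to 52.1 in irradiated members. Dntt-only cells had medians of 14.7 and 19.6, and granule-only cells 22.4 and 23.0. Summed G2/M genes ran from 1.34 over 16.2 to 66.1 in control members and from 1.45 over 14.3 to 79.3 in irradiated members, next to medians of 4.31 and 10.5 in Dntt-only and 18.6 and 19.1 in granule-only cells. After thinning to 5000 UMIs, a UMI of the proliferation marker Mki67 was seen in 26.5% of control and 36.7% of irradiated members, next to 24.0% and 36.1% of Dntt-only and 40.6% and 39.0% of granule-only cells.

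Cd34, a surface marker gene of progenitors, stood at 384 (control) and 365 CPM (irradiated) in members, against 416 and 339 in Dntt-only and 332 and 225 in granule-only cells. Kit, the gene of the c-Kit receptor used in the sort, stood at 96.2 and 72.8 CPM, against 105 and 57.7 and against 86.6 and 63.7. Csf1r, the receptor of macrophage colony-stimulating factor, was seen after thinning in 12.2% of members in each library, next to 4.77% and 4.78% of Dntt-only cells and 10.2% and 9.1% of granule-only cells.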
